A study of Mus musculus with 13 samples.

Results

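The dividing cells of 4 mouse lung libraries, numbered 1, 2, 3 and 7 by the suffix of their cell barcodes, were chosen by the messenger RNAs of Mki67, Top2a and Birc5. A barcode was kept where genes of the mitochondrial genome held at most 10% of its unique molecular identifiers (UMIs, each standing for 1 captured RNA molecule), and a kept cell was called dividing where the 3 genes together had at least 3 UMIs and at least 2 of the 3 genes were detected. Of 24344 barcodes in the 4 libraries, 20856 were kept, and 732 of these (3.51%, 95% interval 3.26 to 3.77) met the rule. The whole series holds 37344 barcodes in 7 libraries. Intervals are exact binomial or Poisson intervals and cover counting error only.

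Protease-dissociated lung cells of C57BL/6 mice were profiled by droplet 3′ RNA sequencing, with 1 mouse in each of the groups labelled Asthma (an ovalbumin model of allergic airway inflammation), PPE-emphysema (repeated intratracheal instillation of porcine pancreatic elastase, PPE), PPE-recovery (1 elastase instillation and a longer interval before the lungs were taken) and Control. The 9 further labelled samples came from groups named Acute injury, Con and emphysema. No label used here pairs a barcode suffix with any of these samples, so the libraries are named by number, each stands as 1 sample, and no test between conditions was possible. A share of cells cannot be told apart from a difference in how well each cell type survived dissociation.

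A cell that enters the cycle first licenses its replication origins, then copies its DNA while making histones, and then condenses, aligns and separates its chromosomes before it splits. Genes for the first steps are driven mainly by E2F factors, whereas genes for mitosis are switched on later by MuvB, B-Myb and FoxM1, and inhibitors such as p18 and p27 hold the cyclin-dependent kinases in check. In the adult lung most cells rest, while alveolar macrophages, the resident phagocytes of the air spaces, renew themselves by division in place, lymphocytes divide after activation, and endothelial cells divide mainly after injury.

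Mki67 encodes the Ki-67 protein that coats mitotic chromosomes, Top2a encodes the topoisomerase that untangles replicated DNA, and Birc5 encodes survivin, a subunit of the chromosomal passenger complex that works at centromeres. Mki67 lies on chr7:135689784-135716361 on the minus strand, Top2a on chr11:98992943-99024189 on the minus strand, and Birc5 on chr11:117849251-117855743 on the plus strand (GRCm38, GENCODE M21). The 150 bases upstream of each gene's RefSeq start are shown because these 3 genes define the cells and because the cell cycle homology region (CHR, TTTGAA) and the CCAAT box are the usual elements of late cycle promoters. They are read 5′ to 3′ on the gene's strand from GRCm38.p6, and capitals mark TTTGAA and CCAAT on either strand, the reverse complement of the first being TTCAAA and that of the second ATTGG. The windows lie at chr7:135716380-135716529 for Mki67, chr11:99024190-99024339 for Top2a and chr11:117849087-117849236 for Birc5.
Mki67: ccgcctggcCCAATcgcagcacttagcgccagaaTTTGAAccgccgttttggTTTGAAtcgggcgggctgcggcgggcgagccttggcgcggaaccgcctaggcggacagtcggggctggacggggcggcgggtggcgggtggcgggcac
Top2a: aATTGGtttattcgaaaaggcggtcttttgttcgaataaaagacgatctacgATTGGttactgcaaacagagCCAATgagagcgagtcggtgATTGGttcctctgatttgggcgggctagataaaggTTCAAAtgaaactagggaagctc
Birc5: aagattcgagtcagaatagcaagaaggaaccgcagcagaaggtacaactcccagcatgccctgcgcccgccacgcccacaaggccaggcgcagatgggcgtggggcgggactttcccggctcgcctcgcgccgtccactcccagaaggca
The Mki67 window holds 2 matches to TTTGAA and 1 to CCAAT, the Top2a window 1 and 4, and the Birc5 window none of either. In RefSeq windows from 250 bases before to 50 after the start, TTTGAA on either strand stood in 20.2% of 27025 promoters and CCAAT in 41.1%. Among 44 promoters found for a list of 51 genes of G2 and mitosis, the shares were 70.5% and 77.3%. Among 32 promoters found for a list of 44 S phase genes, TTTGAA stood in 18.8% and CCAAT in 71.9%. Promoters with both elements made up 54.5% of the G2 and mitosis list, 12.5% of the S phase list and 7.97% of all promoters. Of the 141 genes, other than the 3 rule genes, that were higher in the dividing cells of each of the 5 lineages compared below, 115 had a promoter in the table, and 35.7% of these held both. A match is a run of letters in the window and was not tested as a binding site.

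Library 1 held the largest share of dividing cells among these 4 libraries, with 278 of 4800 kept cells (5.79%, 5.15 to 6.49). Library 2 held 222 of 7626 (2.91%, 2.55 to 3.31), library 3 held 155 of 5129 (3.02%, 2.57 to 3.53) and library 7 held 77 of 3301 (2.33%, 1.85 to 2.91). The interval of library 1 overlaps none of the other 3, and those of libraries 2, 3 and 7 overlap one another. Total UMIs were 50552002, 79439569, 47364075 and 34606626 in libraries 1, 2, 3 and 7. Dividing cells carried more RNA in each library, with a median of 17642 UMIs against 6829.5 in the other kept cells of library 1, 21032.5 against 8103.5 in library 2, 18065 against 6583 in library 3 and 24185 against 6631.5 in library 7. They also had more genes detected (median 4492 against 2529), whereas the mitochondrial share was close (4.91% against 4.66%). A deeper cell has more chances to show 3 UMIs. Cells with at least 3000 UMIs were therefore thinned to 3000 UMIs, and shallower cells were left out. The shares were then 4.30%, 2.18%, 2.36% and 1.67% in libraries 1, 2, 3 and 7. The set of cells changed along with the depth, so these values do not isolate the part of depth. The order of library 1 above the rest held after thinning.

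**Figure D1:**
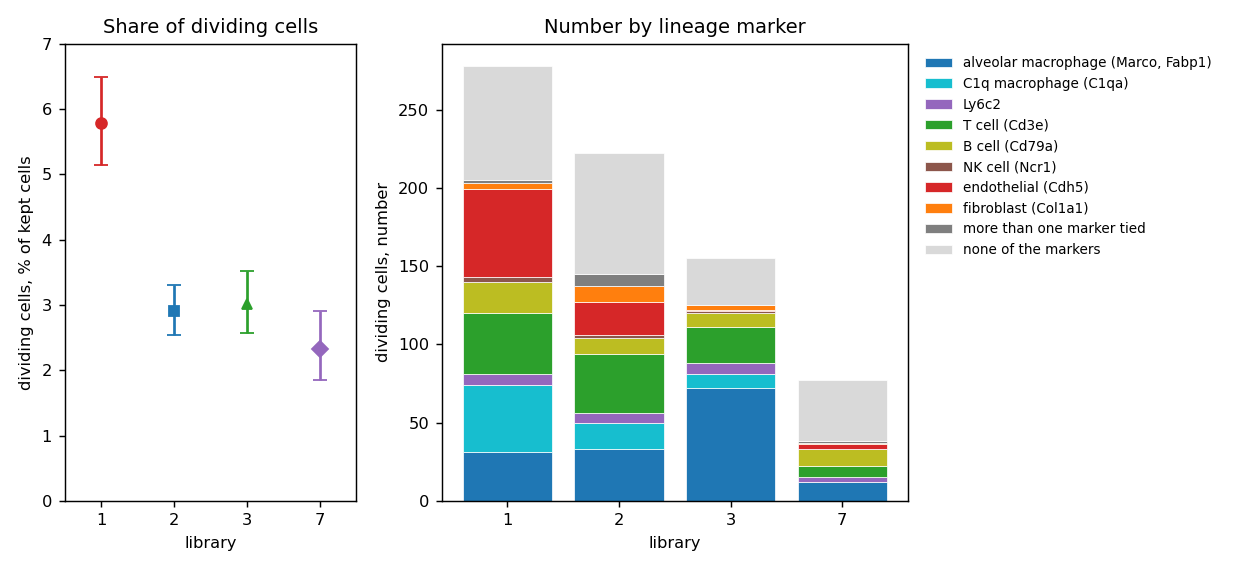
Dividing cells in libraries 1, 2, 3 and 7. The left panel gives the percent of kept cells that met the rule with its exact 95% interval, and the right panel stacks the number of dividing cells by lineage; library 1 reaches 5.79% and library 7 is lowest at 2.33%.

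The rule genes themselves are given as a description of what was selected. Mki67 stood at 612, 550, 619 and 665 CPM (UMIs of the gene per 1000000 UMIs of the summed cells) in the dividing cells of libraries 1, 2, 3 and 7, and at 6.52, 4.94, 5.35 and 6.60 CPM in the other cells. Top2a stood at 698, 663, 678 and 601 CPM in dividing cells and at 6.40, 2.94, 4.11 and 5.36 CPM in the others. Birc5 stood at 442, 433, 449 and 289 CPM in dividing cells, lowest in library 7, and at 2.41, 1.53, 1.72 and 1.56 CPM in the others. Mki67 was detected in 98.5% of the 732 cells, Top2a in 89.2% and Birc5 in 85.8%, and 538 cells had UMIs of all 3 genes. The median cell had 27 UMIs of the 3 genes and the highest had 187, while 520 cells had at least 10. Just inside the threshold were 51 cells with exactly 3 UMIs (median depth 11870 UMIs), and just outside were 96 cells with 2 UMIs from 2 genes (median depth 12984.5) and 90 cells with 3 or more UMIs of a single gene. A further 1225 cells had 1 UMI and 18510 had none.

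Neutrophils leave the cycle before they reach the lung, and the share that met the rule was counted in them as well. They were taken as kept cells with at least 10 UMIs of S100a8 and S100a9 and a UMI of the neutrophil genes Csf3r or Retnlg. Among 1701 such cells, 16 met the rule (0.941%, 0.539 to 1.52), at a median depth of 28597 UMIs against 2956 for all 1701. Mki67 had a UMI in 1.999% of these neutrophils, Top2a in 1.88% and Birc5 in 1.47%. The 16 cells were far deeper than the rest, and 1 of them had the granulocyte precursor genes. Under a separate definition used below, 3 dividing cells without any lineage marker were placed by S100a8 and S100a9. These 3 held Chil3, a macrophage gene, at 25128 CPM, and their overlap with the 16 is not given. The share is therefore not read as a level of free RNA. The libraries shared 64 barcode sequences over 6 pairs of libraries, none of which was dividing in both libraries. The doublet caller Scrublet marked 728 of the 20856 kept cells (3.49%), including 22 of the 732 dividing cells (3.01%), and none were removed.

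Each cell was assigned to the lineage whose marker had the most UMIs: Marco or Fabp1 for alveolar macrophages, C1qa for C1q macrophages, Ly6c2 for monocytes, Cd3e for T cells, Cd79a for B cells, Ncr1 for NK cells, Cdh5 for endothelial cells and Col1a1 for fibroblasts. Ly6c2, which lymphocytes also express, was not counted in a cell with Cd3e, Cd79a or Ncr1. Of the 732 dividing cells, 148 were alveolar macrophages (20.2%), 107 were T cells (14.6%), 81 carried Cdh5 (11.1%), 69 were C1q macrophages (9.43%), 50 were B cells (6.83%), 23 carried Ly6c2 (3.14%), 18 carried Col1a1 (2.46%) and 6 were NK cells (0.820%). In 11 cells the highest markers tied, and 219 cells (29.9%) had none of the 9 marker genes. A UMI of a second lineage's marker was found in 90 dividing cells (12.3%) and in 1914 of the 20124 other cells (9.51%). With at least 2 UMIs for each of 2 distant lineages (macrophages and Ly6c2 cells, T and NK cells, B cells, endothelial cells, fibroblasts), the counts were 30 (4.10%) and 529 (2.63%).

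Measured against the size of its own lineage, and among the 8 lineages set by these markers, division was most frequent in T cells, of which 9.44% met the rule (7.80 to 11.3), and in alveolar macrophages, of which 8.51% did (7.24 to 9.92), and these 2 intervals overlap. C1q macrophages were at 4.52% (3.54 to 5.69), B cells at 3.03% (2.25 to 3.97) and NK cells at 2.67% (0.985 to 5.71). Cdh5 cells were at 2.07% (1.64 to 2.56), a share carried by library 1, without which, in a comparison added after seeing the data, it was 0.752% (0.487 to 1.11), and without library 2, which held most Cdh5 cells, it was 3.43% (2.63 to 4.399). Without library 1 the share of NK cells was 1.76% (0.365 to 5.07). Ly6c2 cells were at 1.22% (0.776 to 1.83) and Col1a1 cells at 0.885% (0.525 to 1.40), and the intervals of NK, Ly6c2 and Col1a1 cells overlap that of the cells with S100a8 and S100a9. For cells thinned to 3000 UMIs, shallower cells were left out and lineages were set again from the thinned markers. The shares were then 6.08% in T cells, 4.67% in alveolar macrophages, 3.13% in C1q macrophages, 2.08% in B cells, 1.25% in Cdh5 cells, 0.559% in Ly6c2 cells and 0.305% in Col1a1 cells. A mitochondrial limit of 5% moved the share of T cells to 15.4%, of B cells to 6.48%, of NK cells to 1.12% and of Col1a1 cells to 0.580%. With lineages set by the summed marker and check lists, the order changed below T cells and alveolar macrophages, with NK cells at 5.19%, Ly6c2 cells at 4.80% and C1q macrophages at 2.26%. Of the 132 dividing cells that those lists gave to Ly6c2, 91 had no lineage marker, and the list holds Ccr2, which stood at 491 CPM in the marker-free dividing dendritic cells described below, and Chil3, which the alveolar macrophage list holds too. Other cells were shallower than dividing ones in each of these lineages, with medians of 14593 against 20068.5 UMIs in alveolar macrophages, 5794 against 14454 in T cells, 4306.5 against 22480.5 in B cells and 5807.5 against 15584 in Cdh5 cells.

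**Figure D2:**
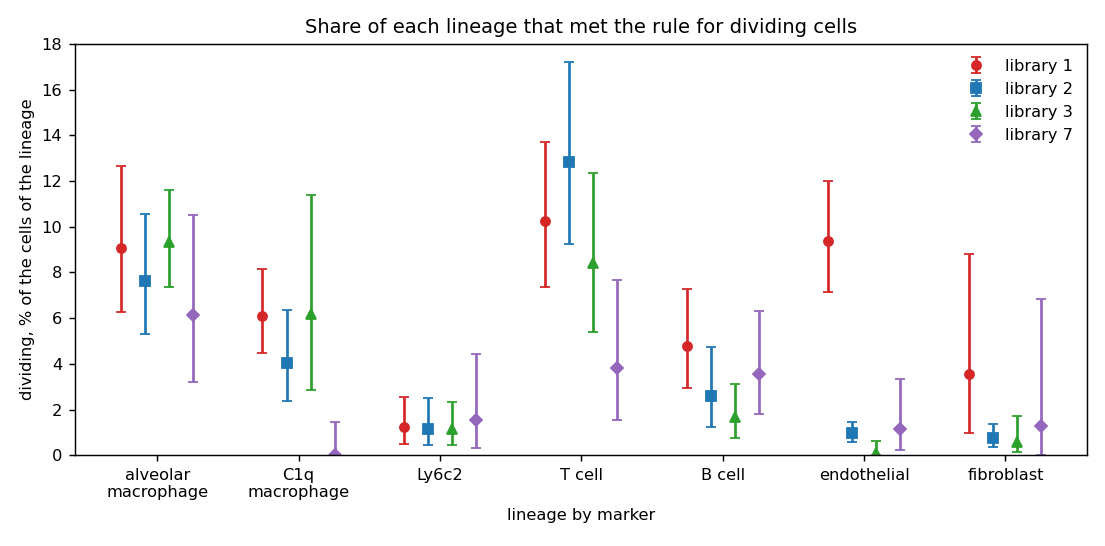
Percent of the kept cells of each of 7 lineages that met the rule for dividing cells, by library, with exact 95% intervals. Alveolar macrophages and T cells sit high in libraries 1, 2 and 3, whereas Cdh5 cells reach 9.38% in library 1 and 1.16% or less in the others.

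Alveolar macrophages divided in all 4 libraries. In library 1, 31 of 341 met the rule (9.09%, 6.26 to 12.7), in library 2, 33 of 432 (7.64%, 5.32 to 10.6), in library 3, 72 of 772 (9.33%, 7.37 to 11.6), and in library 7, 12 of 195 (6.15%, 3.22 to 10.5). The 4 intervals overlap. By Marco or Fabp1 they were 46.5% of all dividing cells in library 3 against 11.2%, 14.9% and 15.6% in libraries 1, 2 and 7, but this order depended on the markers. By the summed marker and check list the lineage held 24.1%, 45.5%, 49.0% and 66.2% of the dividing cells of libraries 1, 2, 3 and 7, so library 7 was then highest. The share of the lineage that met the rule by that list was 6.41% (5.003 to 8.07), 6.35% (5.20 to 7.66), 7.71% (6.12 to 9.55) and 4.13% (3.09 to 5.39). All 148 had their own lineage's summed marker and check list as the largest of the 8 lists, which holds the assigning markers and abundant Chil3 and is therefore no independent check. The receptors and regulators of this cell type stood at like levels in dividing and other alveolar macrophages: Pparg, the transcription factor that specifies them, at 111 and 115 CPM, Csf2ra, the receptor chain for GM-CSF, at 171 and 233 CPM, and Csf1r, the receptor for M-CSF, at 85.3 and 112 CPM over the 4 libraries.

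The alveolar macrophages of library 1 stood apart by Mmp12, the macrophage elastase. Its level was 1189 CPM in dividing and 1333 CPM in other alveolar macrophages of library 1, against 1.37 and 33.6 in library 2, 7.32 and 15.7 in library 3, and 81.2 and 143 in library 7. Both sets of cells were high in library 1, and library 7 came next. High Mmp12 in library 1 was not particular to this lineage. Summed over the cells of all lineages that did not meet the rule, it stood at 862, 54.4, 19.8 and 712 CPM in libraries 1, 2, 3 and 7. The part of free RNA in these levels was not tested. Marco, a scavenger receptor and one of the assigning markers, was at 214 and 256 CPM in library 1, 861 and 557 in library 2, 394 and 408 in library 3, and 427 and 529 in library 7.

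C1q macrophages, which carry the complement component C1q and in the lung include interstitial and monocyte-derived cells, divided in libraries 1, 2 and 3. The counts were 43 of 703 (6.12%, 4.46 to 8.15), 17 of 423 (4.02%, 2.36 to 6.36) and 9 of 146 (6.16%, 2.86 to 11.4). In library 7 none of 253 met the rule, which allows a share of up to 1.19% by a floor of 3 cells (exact upper limit 1.45%). By the summed lists, the C1q list was the largest in 114 of these 253 (45.1%) and the alveolar macrophage list in 111 (43.9%). Among the C1qa cells of libraries 1, 2 and 3 that did not meet the rule, the C1q list was the largest in 70.5%, 80.3% and 85.4%. The limit in library 7 thus covers a mixed group. In library 2, the alveolar macrophage list was the largest in 8 of the 17 dividing cells. The marker and check lists placed 48 of the 69 in this lineage, 12 with alveolar macrophages and 9 with Ly6c2 cells. In library 1, the Ly6c2 list was the largest in 9 of the 43 dividing C1q macrophages (20.9%) and in 28 of the 660 others (4.24%). The alveolar macrophage list was the largest in 4 (9.30%) and 138 (20.9%). The part of this difference in make-up in the levels that follow was not tested. In that library, the dividing C1q macrophages had lower levels than the others of several macrophage products. Gpnmb, a glycoprotein of lipid-laden macrophages, was at 46.6 against 847 CPM, Spp1, osteopontin, at 245 against 2007 CPM, the chemokine Ccl8 at 90.2 against 1096 CPM and Mmp12 at 827 against 1830 CPM. Ccr2, the receptor that draws monocytes into tissue, was at 725 CPM in the dividing and 487 CPM in the other C1q macrophages of that library.

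T cells divided in all 4 libraries, with 39 of 381 in library 1 (10.2%, 7.38 to 13.7), 38 of 296 in library 2 (12.8%, 9.25 to 17.2), 23 of 273 in library 3 (8.42%, 5.42 to 12.4) and 7 of 184 in library 7 (3.80%, 1.54 to 7.68). The interval of library 7 lies below that of library 2 and overlaps those of libraries 1 and 3. Cells with Cd4 and no Cd8 UMI were 64 of the 107 dividing T cells (59.8%, 49.9 to 69.2) and 341 of the 1027 others (33.2%, 30.3 to 36.2). By library, the Cd4 share was 61.5%, 57.9%, 60.9% and 57.1% of dividing T cells in libraries 1, 2, 3 and 7, and 45.0%, 24.0%, 26.0% and 33.9% of the others. The share in dividing cells was higher in each library, and in library 7 it rests on 7 cells. Cells with neither Cd4 nor Cd8 were 7.48% of dividing and 29.1% of other T cells, so the deeper dividing cells could be typed more often, and the part of depth in the Cd4 share was not tested. Cd8 cells were 27.1% and 36.4%.

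Foxp3, the transcription factor of regulatory T cells, was detected in 16 dividing T cells (15.0%, 8.80 to 23.1) and in 6.33% of the others (4.92 to 7.996). The numbers were 2 of 39, 5 of 38, 7 of 23 and 2 of 7 in libraries 1, 2, 3 and 7, so library 3 held the most. Ctla4, a brake receptor of activated and regulatory T cells, stood at 347, 103, 536 and 269 CPM in dividing T cells of libraries 1, 2, 3 and 7 and at 310, 104, 153 and 248 CPM in the others. Gata3, the factor of type 2 helper cells, stood at 256, 98.9, 145 and 81.5 CPM against 190, 99.5, 53.7 and 135 CPM, so the libraries did not go 1 way. Gzma, a granzyme of cytotoxic cells, was at 550, 1018 and 570 CPM against 89.6, 348 and 166 CPM in libraries 1, 2 and 3, whereas in library 7 it was at 16.3 against 507 CPM. Gzma was found in 19.6% of dividing and 6.23% of other T cells. Dividing T cells were the deeper ones here too, and the part of depth in the Foxp3 and Gzma shares was not tested.

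B cells met the rule in 20 of 420 (4.76%, 2.93 to 7.26), 10 of 383 (2.61%, 1.26 to 4.75), 9 of 541 (1.66%, 0.763 to 3.13) and 11 of 308 (3.57%, 1.80 to 6.30) of libraries 1, 2, 3 and 7, with overlapping intervals. Jchain, which joins secreted IgM and IgA and marks antibody-secreting cells, had at least 10 UMIs in 13 of the 50 dividing B cells (26.0%, 14.6 to 40.3) and in 3.18% of the others (2.38 to 4.16). By library these were 5 of 20, 6 of 10, 0 of 9 and 2 of 11 dividing B cells in libraries 1, 2, 3 and 7. The summed Jchain level did not go 1 way, at 2050 against 5562 CPM in dividing and other B cells of library 1, 15213 against 6455 CPM in library 2, 0 against 303 CPM in library 3 and 8736 against 5482 CPM in library 7. Cd79a, the assigning marker, stood at 939 CPM in dividing and 1723 CPM in other B cells, and Ebf1, an early B cell factor, at 340 and 925 CPM. The dividing B cells were far deeper than the others, and the part of depth in the Jchain share was not tested.

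Division of endothelial cells was concentrated in library 1. There 56 of 597 Cdh5 cells met the rule (9.38%, 7.16 to 12.01), against 21 of 2174 in library 2 (0.966%, 0.599 to 1.47), 1 of 892 in library 3 (0.112%, 0.00284 to 0.623) and 3 of 258 in library 7 (1.16%, 0.240 to 3.36). The interval of library 1 lies above those of libraries 2, 3 and 7. Cdh5 cells made up 20.1% of the dividing cells of library 1 and 9.46%, 0.645% and 3.90% of those of libraries 2, 3 and 7. The wider lists gave a second reading of the same cells: 51 of the 56 in library 1 had endothelial genes as their largest list, but 5 of the 21 in library 2 did, where 10 had the alveolar macrophage list, 5 the Ly6c2 list and 1 the T cell list as the largest. The median number of UMIs of the endothelial check genes was 69.5 per dividing Cdh5 cell in library 1 and 12 in library 2, against 54 and 44 in the other Cdh5 cells. With at least 2 UMIs of Cdh5 and no UMI of another marker, 44, 7, 0 and 2 dividing cells were left in libraries 1, 2, 3 and 7.

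**Figure D3:**
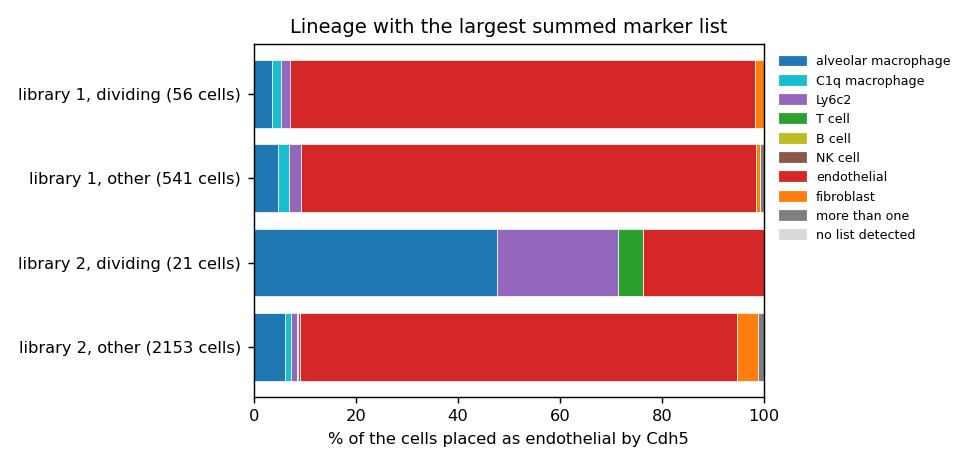
Cdh5 cells of libraries 1 and 2, as the percent whose largest summed marker list was that of each lineage, for dividing and other cells. In library 1 the endothelial list was the largest in 91.1% of the dividing cells, and in library 2 in 23.8%.

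The 44 strictly assigned dividing endothelial cells of library 1, a set chosen after the data were seen, carried pan-endothelial and capillary genes. Cdh5 itself, VE-cadherin, was at 1786 CPM against 1989 in the 437 other cells of that kind, Pecam1, an adhesion molecule of endothelial junctions, at 1288 against 1586, Cldn5, a tight junction claudin, at 2060 against 3531, and Kdr, the main VEGF receptor, at 442 against 625 CPM. Gpihbp1, which carries lipoprotein lipase across capillaries, was detected in 93.2% of the 44 cells at 502 against 807 CPM, and Plvap, the diaphragm protein of fenestrae and caveolae, stood at 730 against 923 CPM. Genes of other vessel classes varied. Ednrb, an endothelin receptor of the Car4-rich capillary cell, had UMIs in 3 of the 44 cells (8.51 against 93.8 CPM), whereas Car4, the carbonic anhydrase of that class, had UMIs in 30 (192 against 313 CPM). Vwf, the clotting factor carrier of larger vessels, was detected in 19 of the 44 cells (43.2%) at 631 against 1249 CPM. Prox1, the lymphatic factor, had no UMI (22.7 CPM in the others). Apln, the peptide apelin, was at 13.6 against 74.8 CPM, and its receptor Aplnr at 133 against 199 CPM. In the 7 such cells of library 2, Chil3 stood at 4870 and H2-Aa, an MHC class II chain, at 3271 CPM, against 762 and 759 CPM in the 1571 other cells of that kind in the library.

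Col1a1 cells met the rule in 4 of 113, 10 of 1337, 3 of 505 and 1 of 79 in libraries 1, 2, 3 and 7. The check list for fibroblasts had a median of 8 UMIs in the 18 dividing cells against 303 in the 2016 others, and it was the largest list in 9 of the 18. NK cells met it in 3 of 55, 2 of 93, 1 of 33 and 0 of 44, and all 6 had the NK list as the largest.

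The 23 dividing Ly6c2 cells (7 of 561, 6 of 513, 7 of 613 and 3 of 195 in libraries 1, 2, 3 and 7) held genes of other cells as well. Primary granule genes of bone marrow precursors were summed to Mpo at 777, Elane at 890, Prtn3 at 1025 and Ctsg at 636 CPM, against 0.512, 0.398, 19.6 and 1.19 CPM in the 1859 other Ly6c2 cells, but they were detected in 2, 3, 5 and 4 of the 23 cells. Library 3 held nearly all of these UMIs, with Mpo at 2185 and Elane at 2478 CPM in its 7 dividing Ly6c2 cells. In libraries 1 and 2 both genes had no UMI in those cells, and in library 7 Mpo had none and Elane stood at 106 CPM. By lists of further cell types, 10 of the 23 had dendritic genes, 3 the granulocyte precursor genes, 3 neutrophil genes, 3 the alveolar macrophage list and 2 epithelial genes, and the remaining 2 matched no list. The shares in the other Ly6c2 cells were 9.90% for dendritic genes against 43.5% of the 23, and 1.78% for granulocyte precursor genes against 13.0%. They were 12.9% for neutrophil genes against 13.0%, 6.24% for the alveolar macrophage list against 13.0% and 4.57% for epithelial genes against 8.70%. No list was matched by 64.6% of the others and 8.70% of the 23. The neutrophil share of the 23 rests on 1 cell of library 3 and 2 of library 7. Dividing Ly6c2 cells were deeper, at a median of 25511 against 9093 UMIs, and the part of depth in these shares was not tested.

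The 219 dividing cells without any assigning marker were sorted by lists of further cell types, which were chosen after the data were seen. Dendritic cells, the antigen-presenting cells of the airway wall, were 119 of them (54.3%), and 81 (37.0%) had alveolar macrophage genes other than Marco and Fabp1. A further 13 matched no list, 2 had epithelial genes, 1 had erythroid genes, and 3 were placed by S100a8 and S100a9. The genes of those 3 go against the name of neutrophil, with S100a8 at 9708 against 41607 CPM and Chil3 at 25128 against 1261 CPM in the 1062 other cells so placed. Of all 837 marker-free cells with dendritic genes, 14.2% met the rule (11.9 to 16.8). By library the counts were 47 of 220 (21.4%, 16.1 to 27.4), 36 of 276 (13.0%, 9.31 to 17.6), 23 of 149 (15.4%, 10.04 to 22.3) and 13 of 192 (6.77%, 3.65 to 11.3), so library 1 was highest and library 7 lowest and their intervals do not overlap. The pooled interval lies above that of each of the 8 assigned lineages. By library this held in library 1 only. In libraries 2, 3 and 7 the interval of dendritic cells overlapped that of T cells, which were at 12.8%, 8.42% and 3.80%. The median depth of the 837 cells was 14850 UMIs, and the part of depth in their share was not tested. The 1655 marker-free cells with the alveolar macrophage list divided at 4.89% (3.91 to 6.05).

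Both main dendritic classes divided. Cells with more Xcr1 or Clec9a, markers of the cross-presenting cDC1 class, than Cd209a met the rule in 54 of 328 (16.5%, 12.6 to 20.9), and cells with more Cd209a, a marker of cDC2, in 53 of 289 (18.3%, 14.0 to 23.3). In library 1 the Cd209a class reached 24 of 77 (31.2%, 21.1 to 42.7) against 13 of 104, 9 of 42 and 7 of 66 in libraries 2, 3 and 7, and the Xcr1 or Clec9a class was at 15 of 64, 23 of 136, 11 of 65 and 5 of 63. Cells with at least 3 UMIs of Ccr7, the receptor that takes mature dendritic cells to lymph nodes, met it in 11 of 236 (4.66%, 2.35 to 8.19), below both classes. In dividing and other dendritic cells, Cd209a was at 359 and 363 CPM, Xcr1 at 179 and 190 CPM and Clec9a at 91.6 and 125 CPM. Flt3, the growth factor receptor of the dendritic line, was at 142 and 176 CPM, and H2-Aa at 8277 and 9352 CPM. Xcr1, Clec9a and Cd209a set the classes, so their levels are no independent check. Mmp12 was at 314 CPM in dividing and 33.2 CPM in other dendritic cells, and Lyz2 at 503 and 934 CPM. These levels are pooled over libraries, and Mmp12 differed widely between libraries, as given above. Library 1 held 47 of the 119 dividing and 173 of the 718 other dendritic cells, and library 7 held 13 and 179. The part of library and of depth in the Mmp12 difference was not tested.

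The other genes of the cycle were compared within lineages, from UMIs summed over the dividing and over the other cells of a lineage in a library, wherever 20 dividing cells were available. That was the case in libraries 1, 2 and 3 for alveolar macrophages and T cells, in library 1 for C1q macrophages and B cells, and in libraries 1 and 2 for Cdh5 cells. The 21 dividing Cdh5 cells of library 2 mostly had macrophage or Ly6c2 genes as their largest list, so library 2 sets partly other cell types against endothelial cells and is no replicate of library 1. A gene was tested if its level, averaged over both sets of cells, reached 20 CPM in each library used, and it was counted as higher or lower at a ratio of at least 2 in every library used. The rule chose these cells by genes of the same programme, and a gene that is low in resting cells could reach 20 CPM only through the dividing ones, so the counts describe the selected cells and are not support for their division. Higher genes were 240 of 5508 in alveolar macrophages (4.36%), 559 of 6012 in C1q macrophages (9.3%), 349 of 5047 in T cells (6.91%), 1095 of 5859 in B cells (18.7%) and 290 of 6530 in Cdh5 cells (4.44%). Lower genes were 1 (0.0182%), 309 (5.14%), 96 (1.9%), 561 (9.58%) and 64 (0.98%) in the same order. The comparisons that rest on 1 library, those of C1q macrophages and B cells, have no replicate check and gave the most calls. A set of 144 genes, the 3 rule genes included, was higher in all 5 lineages among 3861 tested in all of them, and none was lower in all 5.

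By role, all tested licensing genes were higher, 9 of 9 in alveolar macrophages, 10 of 10 in C1q macrophages, 9 of 9 in T cells, 10 of 10 in B cells and 9 of 9 in Cdh5 cells, of 11 listed, with median ratios of 4.66, 5.97, 6.05, 9.33 and 6.99. The median over all tested genes was 1.009, 1.08, 1.10, 1.12 and 0.930 in the same order. Mcm5, a subunit of the helicase that opens origins, stood at 139, 135, 133 and 144 CPM over all dividing cells of libraries 1, 2, 3 and 7 and at 13.4, 9.45, 13.0 and 12.9 CPM in the others. Genes of DNA synthesis were higher in 10 of 10, 12 of 12, 12 of 12, 11 of 12 and 11 of 12. Rrm2, the regulated subunit of ribonucleotide reductase, stood at 228, 292, 296 and 272 CPM in dividing cells and at 2.48, 1.97, 2.15 and 1.95 CPM in the others. Pcna, the sliding clamp of DNA polymerases, was also well expressed in resting cells, at 85.2, 66.5, 85.2 and 86.4 CPM against 363, 408, 429 and 408 CPM in the dividing cells.

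Histone genes were higher in 6 of 7, 9 of 10, 9 of 10, 9 of 10 and 8 of 9 tested. Hist1h2ap, a replication-dependent H2A gene, differed between libraries in the dividing cells, at 63.3, 178, 251 and 131 CPM, while it was at 0.778, 1.14, 1.46 and 2.07 CPM in the others. Library 1 was the lowest and library 3 the highest. These levels are over all dividing cells, whose lineages differed between libraries, and the part of lineage was not tested. H2afz, the H2A.Z variant, stood at 3188, 2816, 2872 and 1803 CPM against 709, 508, 569 and 458 CPM.

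Cyclins and kinases were higher in 11 of 14, 13 of 15, 9 of 13, 12 of 15 and 9 of 14 tested of 18 listed. Ccna2, cyclin A2, which acts in S phase and G2, stood at 180, 199, 201 and 145 CPM in dividing cells and at 0.978, 0.544, 0.549 and 0.415 CPM in the others. Cdk1, the mitotic kinase, stood at 233, 255, 257 and 163 CPM against 3.86, 3.08, 2.75 and 2.81 CPM. Of the D cyclins, which respond to growth factors in G1, Ccnd2 was read over all lineages together. It was at 138, 129, 336 and 227 CPM in dividing cells and at 174, 151, 280 and 274 CPM in the others, so neither set was higher throughout. Ccnd3 had ratios of 1.77 in alveolar macrophages, 3.19 in C1q macrophages, 1.11 in T cells, 2.92 in B cells and 1.10 in Cdh5 cells. It thus passed a ratio of 2 in C1q macrophages and B cells.

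Kinetochore and spindle genes were higher in 17 of 18, 19 of 19, 20 of 20, 20 of 20 and 18 of 18 tested, with median ratios of 23.2, 42.1, 28.8, 37.3 and 47.8. Cenpf, an outer kinetochore protein, stood at 340, 226, 250 and 254 CPM against 1.81, 0.614, 0.430 and 0.702 CPM. Stmn1, which destabilises microtubules, stood at 1230, 1281, 1371 and 754 CPM against 69.0, 105, 90.5 and 38.6 CPM. Among the anaphase-promoting complex and exit genes, 6 of 7 were higher in each lineage. Ube2c, the complex's ubiquitin-conjugating enzyme, stood at 589, 507, 478 and 334 CPM against 5.67, 1.45, 1.46 and 1.66 CPM. Pttg1, securin, was the seventh, at 38.7, 54.9, 49.3 and 30.9 CPM in dividing cells and 41.4, 72.9, 66.1 and 40.2 CPM in the others. Within lineages its ratio was 1.25 in alveolar macrophages, 0.788 in C1q macrophages, 1.59 in T cells, 1.31 in B cells and 0.576 in Cdh5 cells, so it went both ways. A gene with many near-identical copies can lose reads in counting, and Pttg1 was not checked for that.

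**Figure D4:**
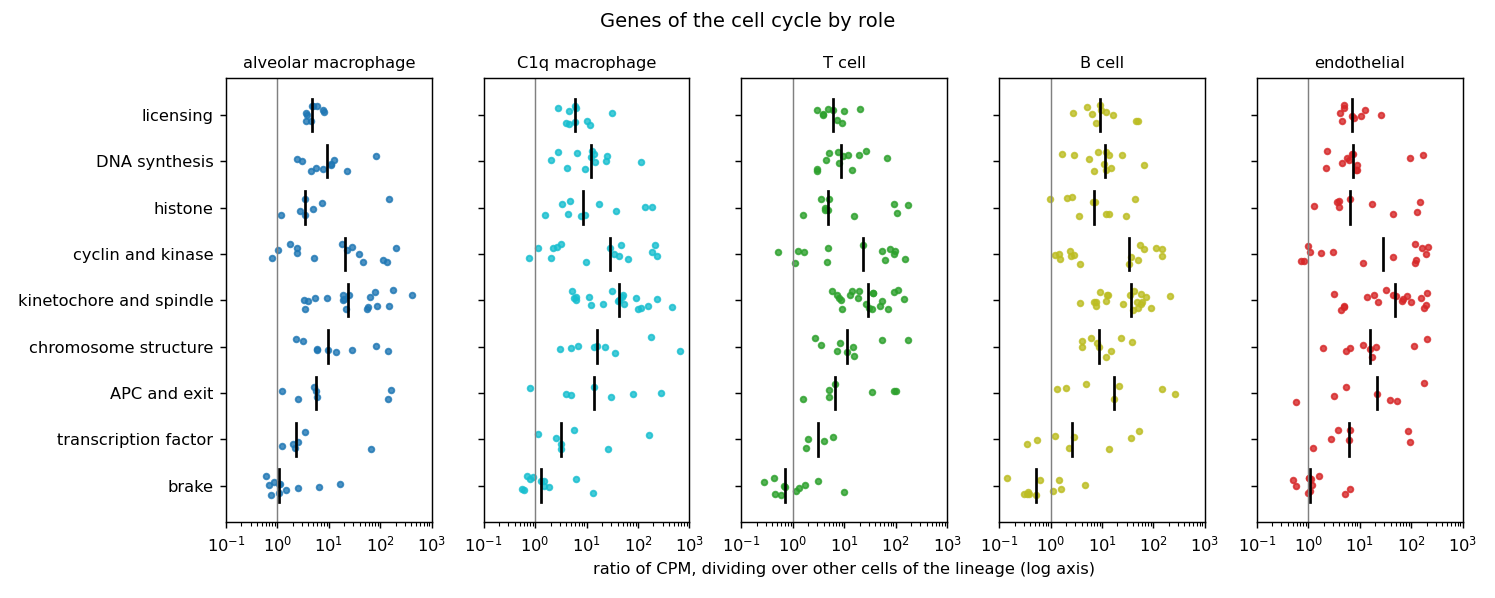
Ratio of the level in dividing cells to the level in other cells of the same lineage for each listed gene tested, by role, on a log axis, in 5 lineages. Points are genes (mean over the libraries used) and bars are medians. By median, kinetochore and spindle genes lie highest and licensing genes lie between 4.66 and 9.33. The inhibitors have medians from 0.525 in B cells to 1.28 in C1q macrophages.

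Transcription factors of the cycle were less uniform. Of 10 listed, those higher were 3 of 6 tested in alveolar macrophages, 6 of 7 in C1q macrophages, 2 of 4 in T cells, 5 of 8 in B cells and 6 of 7 in Cdh5 cells. In B cells 1 was lower. Foxm1, which drives mitotic genes, stood at 57.3, 58.0, 68.8 and 58.1 CPM in dividing cells and at 0.778, 0.544, 0.884 and 0.925 CPM in the others. E2f1, which drives entry into S phase, was at 52.5, 56.4, 65.5 and 63.8 CPM against 14.9, 12.3, 14.9 and 16.7 CPM. The brakes on the cycle, 12 genes of which 11 were tested in each lineage, did not go 1 way over the lineages. Of them, 2 were higher in alveolar macrophages, C1q macrophages, T cells and Cdh5 cells and 1 in B cells. In T cells 1 of the 11 was lower, against 1.9% of all tested genes, and their median ratio was 0.708 against 1.10. In B cells 5 of the 11 were lower, against 9.58% of all tested genes, and their median ratio was 0.525 against 1.12. Cdkn2c (p18), an inhibitor of CDK4 and CDK6 that is itself made in S phase and G2, was higher in all 5, with ratios from 4.61 to 16.7. Cdkn1a (p21), the inhibitor induced by p53, stood at 248, 237, 331 and 326 CPM in dividing cells and 215, 201, 237 and 272 CPM in the others.

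Of the brakes, the lower ones were Btg1 in T cells and 5 genes in B cells. Btg1, an antiproliferative factor that keeps T cells at rest, was at 539, 322 and 437 CPM in the dividing T cells of libraries 1, 2 and 3 and at 1541, 1290 and 1782 CPM in the other T cells. All 3 dividing values lay below all 3 of the others. In B cells of library 1, Klf2, a factor of resting lymphocytes, had a ratio of 0.141, Btg1 of 0.309, Cdkn1b (p27) of 0.355, Rbl2 (p130), a pocket protein that represses cycle genes at rest, of 0.360 and Btg2 of 0.382. Over all lineages together, Klf2 stood at 316, 309, 315 and 243 CPM in dividing cells and 693, 626, 700 and 551 CPM in the others.

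By the rule for named genes (up to 5 with the most extreme ratio in each direction and lineage outside the cycle lists), Pclaf, a PCNA-associated factor, led in alveolar macrophages at 528, 496 and 604 CPM in dividing against 4.93, 1.95 and 4.62 CPM in other cells of libraries 1, 2 and 3. It led in T cells too, at 839, 810 and 922 CPM against 3.96, 11.6 and 7.16 CPM. Kif20a, a kinesin of the cleavage furrow, Iqgap3, Pbk, a mitotic kinase, and Esco2, a cohesin acetyltransferase, followed in alveolar macrophages, each with at most 3 UMIs in the other cells of a library. In T cells these were Kif22, a chromosome-arm kinesin, Spc24, a subunit of the Ndc80 complex, Knl1, a kinetochore scaffold, and Shcbp1. C1q macrophages were led by Pbk, Aspm, which focuses spindle poles, Neil3, a DNA glycosylase, Spag5 and Knl1, and B cells by Aspm, Pclaf, Esco2, Chaf1a, a histone chaperone, and Spc25. Pbk, Knl1, Mxd3 and Cep55, an abscission factor, were among the leading genes in Cdh5 cells.

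On the lower side, Aldoc, a glycolytic aldolase, was the only gene counted in alveolar macrophages, at 29.1, 41.0 and 17.6 CPM in dividing against 111, 85.6 and 50.5 CPM in other cells of libraries 1, 2 and 3, and no gene was lower there under the strict lineage rule. In T cells, Satb1, a chromatin organiser of naive T cells, was at 21.9, 39.0 and 87.9 CPM against 279, 327 and 563 CPM. Igfbp4, Pik3ip1, an inhibitor of PI3 kinase, Rflnb and Chil3, a chitinase-like protein of macrophages, were the other 4. Genes of the airway epithelium were among the lower names elsewhere. Scgb1a1, the club cell secretoglobin, was at 127 against 4315 CPM in library 1 and at 375 against 16369 CPM in library 2 in Cdh5 cells, at 116 against 2943 CPM in C1q macrophages and at 103 against 11534 CPM in B cells of library 1. Scgb3a2 was named in all 3 of these lineages, Hp in C1q macrophages and B cells, Wfdc2 and Retnla in B cells, Cyp2f2 in Cdh5 cells, and Fabp4 and Gpnmb in C1q macrophages. The other cells were the shallower ones, and the part of free airway RNA in these differences was not tested. Ednrb, at 5.71 and 10.8 CPM in dividing against 80.7 and 133 CPM in other Cdh5 cells of libraries 1 and 2, and Igfbp5 were also named there, and the library 2 value carries the limit of cell type given above.

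Of the 144 genes higher in all 5 lineages, 83 were in the cycle and role lists, which hold the 3 rule genes, and 61 were not, among them Aspm with ratios from 34.5 to 253, Spc25 from 32.2 to 116, Pclaf from 68.2 to 325, and Ezh2, the methyltransferase of Polycomb, from 4.45 to 12.3 over the lineages and libraries used. Ratios are set against a floor of 3 UMIs where the lower side had fewer. Over 27 sets of at least 100 kept cells of a lineage in a library, the summed level of the 3 rule genes ran from 9.19 CPM in C1q macrophages of library 7 to 606 CPM in T cells of library 1. The genes with the most alike pattern over these sets were Kif11, a spindle kinesin (r = 0.99), Ncapg and Smc2 of condensin (both r = 0.98), Kif22 (r = 0.98), Cdca8, borealin, a partner of survivin (r = 0.98), and Ezh2 (r = 0.97), followed by Kif15, Ncapd2, Ska1 and Spc24. The sets share libraries and depth, and the correlation is a description.

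To describe where in the cycle the cells stood, 706 of the dividing cells were thinned to 5000 UMIs, and 26 shallower cells were left out. The median cell then had 20 UMIs of the S phase list and 43 of the G2 and mitosis list, against 2 and 5 in 12714 other cells. The S list exceeded the G2 and mitosis list in 186 cells (26.3%, 23.1 to 29.8). All 3 rule genes belong to the later phases, so cells early in S phase had less chance to be chosen. By lineage the share was 37.1% in alveolar macrophages (29.1 to 45.5), 34.8% in C1q macrophages (23.7 to 47.2), 27.1% in B cells (15.3 to 41.8), 21.8% in Cdh5 cells (13.2 to 32.6) and 15.4% in T cells (9.06 to 23.8). The intervals of alveolar macrophages and T cells do not overlap. By library it was 27.8%, 24.7%, 22.8% and 32.9% over all dividing cells of libraries 1, 2, 3 and 7, with overlapping intervals. In alveolar macrophages it was 43.3%, 34.4%, 30.4% and 66.7%, and in T cells 23.7%, 10.5%, 9.52% and 14.3%. T cells were lower in each library, but within each library the intervals of these lineages overlap. The values of library 7 rest on 8 of 12 alveolar macrophages and 1 of 7 T cells. The median number of G2 and mitosis UMIs was highest among these lineages in T cells (71.5), and within library 1 it was 83 in Cdh5 cells.

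**Figure D5:**
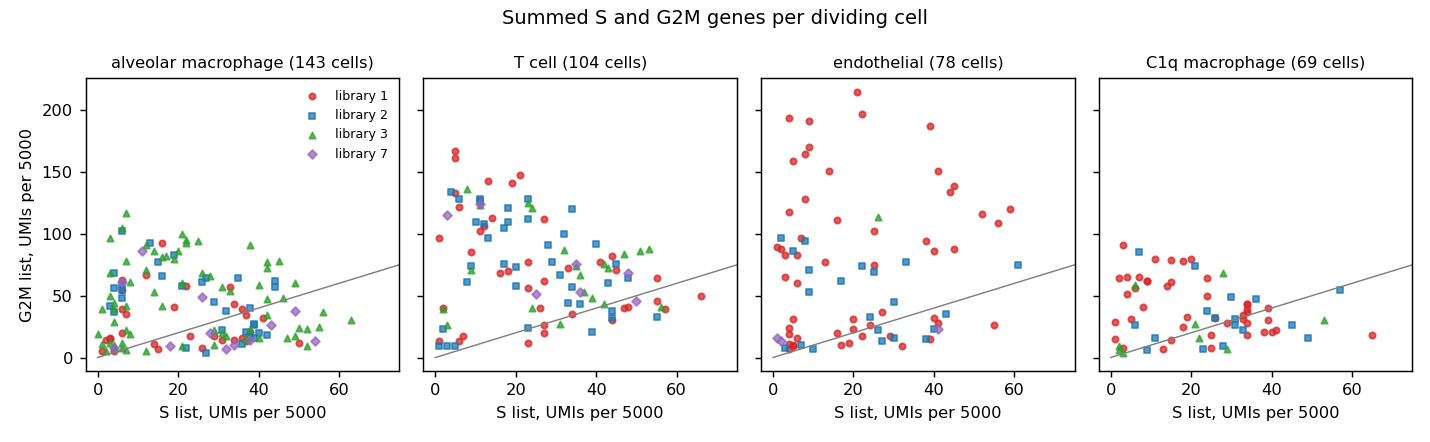
UMIs of the S phase list against UMIs of the G2 and mitosis list per cell after thinning to 5000 UMIs, for the dividing alveolar macrophages (143 cells), T cells (104), Cdh5 cells (78) and C1q macrophages (69). The line marks equal numbers; 37.1% of alveolar macrophages and 15.4% of T cells lie on the S side.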

How the data were processed

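Single-cell RNA was measured from mouse lung with the 10x Genomics 3′ chemistry, and the deposited matrix holds UMI counts of 31053 genes in 37344 barcodes of 7 libraries, which the authors made with Cell Ranger 3.1.0 and STAR on mm10, per the submitters' processing notes and the study's methods. Per the study's methods, reads were down-sampled as required when libraries were aggregated, so the counts may be below the full depth of a library. Ensembl IDs matched GENCODE M21 for 30934 genes.

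Barcodes with over 10% of UMIs from 13 mitochondrial genes were left out. The members of each cell group and all gene lists were chosen with earlier results of these data known. Lineages were assigned as the report states, a strict alternative required at least 2 UMIs of the marker and none of another, and levels are CPM over summed cells. No label used here ties a library to a sample, condition or animal, so no test between groups was run. Shares have exact Clopper-Pearson 95% intervals, and CPM were compared as ratios against a floor of 3 UMIs. Named genes were up to 5 per lineage and direction with the largest ratio among those at least 2-fold apart in every library used, outside the cycle and role lists, and 1 gene that the rule named is not reported here. Doublets were called with Scrublet and kept in the main counts. The ratio step was tested on simulated data: at a 4-fold change it recovered 100% of genes in alveolar macrophages, C1q macrophages, B cells and Cdh5 cells and 99.0% in T cells. Under the same draws, 1.69% of unchanged genes in B cells passed the fold. The draws were Poisson counts of summed profiles with no spread between cells. Changed genes were taken only from those above the level limit in the other cells. These rates therefore do not cover uneven cells or genes near 0 in the other cells. Promoters are from RefSeq (GRCm38.p6). Python 3.11.15, numpy 2.4.6, pandas 2.3.3, scipy 1.17.1, matplotlib 3.10.9 and scanpy 1.11.5 were used.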

Additional observations from a re-analysis of the deposited data

Results flagged for a closer look

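Cells that met the rule were also found in libraries outside the comparison, in libraries 4 and 5 above the limit that a count of 0 allows. Library 4 held 26 among 2992 kept cells (0.869%, 0.568 to 1.27), of which 20 carried Ly6c2, 3 were B cells and 2 were NK cells. Library 5 held 32 among 4888 (0.655%, 0.448 to 0.923), of which 28 were T cells, 2 NK cells and 1 a B cell. Library 6 held 2 among 4882 (0.0410%, 0.00496 to 0.148), both T cells, which is below the floor of 3 cells. Neither library 4 nor library 5 had a dividing cell assigned to a macrophage, endothelial or fibroblast lineage. Hba-a1, a globin gene of red cells, stood at 7041 CPM in the dividing cells of library 4 at 9733 CPM in those of library 5 and at 43529 CPM in those of library 6, and its part in the calls was not tested.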

How the results depend on the processing

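No ratio of a named gene changed direction in thinned counts or under the strict lineage rule, but 9 and 7 of them were weaker. The order of lineages and libraries changed under the summed list, as given above. Leaving out 1 library at a time gave 454 to 655 dividing cells, with 454 without library 1. The share of a lineage, left out in the same way after seeing the data, ran from 7.85% to 8.80% in alveolar macrophages, 3.16% to 5.42% in C1q macrophages, 1.19% to 1.26% in Ly6c2 cells, 8.23% to 10.5% in T cells, 2.44% to 3.69% in B cells, 1.76% to 3.31% in NK cells, 0.752% to 3.43% in Cdh5 cells and 0.729% to 1.15% in Col1a1 cells. Its lowest value in Cdh5 cells, NK cells and C1q macrophages came without library 1, and the 3.43% in Cdh5 cells without library 2. A mitochondrial limit of 5% left 387 dividing cells and 5.06% of library 1, with 81 alveolar macrophages, 30 C1q macrophages, 14 Ly6c2 cells, 52 T cells (15.4% of the lineage), 14 B cells (6.48%), 2 NK cells, 33 Cdh5 cells and 7 Col1a1 cells. Cells thinned to 3000 UMIs gave 448 dividing cells, shares of 4.30%, 2.18%, 2.36% and 1.67% in libraries 1, 2, 3 and 7, and 52 alveolar macrophages (4.67%), 35 C1q macrophages (3.13%), 8 Ly6c2 cells (0.559%), 50 T cells (6.08%), 27 B cells (2.08%), 3 NK cells, 38 Cdh5 cells (1.25%) and 5 Col1a1 cells (0.305%). Keeping cells with UMIs and genes within 2 SD of the mean gave 4.41%, 2.08%, 2.15% and 1.496% in the 4 libraries, 45 C1q macrophages (3.20%), 11 Ly6c2 cells (0.598%), 32 B cells (2.01%) and 9 Col1a1 cells (0.467%), and shares of 6.26% of alveolar macrophages and 1.55% of Cdh5 cells. A minimum of 5 UMIs gave 5.04% in library 1, and a minimum of 2 UMIs gave 3.34% in library 2. The strict lineage rule left 40 C1q macrophages, 11 Ly6c2 cells, 3 NK cells, 53 Cdh5 cells and 6 Col1a1 cells (0.403%). Lineage by summed list gave 295 alveolar macrophages (6.07%), 132 Ly6c2 cells (4.80%), 21 NK cells, and shares of 2.26% of C1q macrophages, 1.61% of Cdh5 cells and 0.508% of Col1a1 cells.

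Counts of genes higher and lower moved with the fold and the filter. At a fold of 1.5 they were 386 and 33 in alveolar macrophages, 1233 and 748 in C1q macrophages, 749 and 310 in T cells, 1915 and 1120 in B cells, and 498 and 337 in Cdh5 cells. At a mean of at least 50 CPM they were 118 and 0, 248 and 165, 197 and 38, 577 and 265, and 126 and 26 in the same order. In thinned counts 3 genes were lower in alveolar macrophages, 43 in T cells and 260 in B cells, and 972 were higher in C1q macrophages, of which 426 were among the 559 called without thinning. Of the genes called lower without thinning, 16 of 64 were called again in Cdh5 cells and 170 of 309 in C1q macrophages, and 707 of the 1095 higher genes of B cells were among 1617. Under the strict lineage rule, an alternative chosen after seeing the data, 0 were lower in alveolar macrophages, where Aldoc had been the 1 gene.

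The share of Cdh5 cells dividing in library 1 ran from 6.31% to 12.2% over the alternatives, and in library 2 from 0.260% to 1.15%. No paired analysis was possible because the libraries carry no sample label or replicate number. Depth limits the shallow cells most: a cell of few UMIs can miss the 3 rule genes and its lineage marker, so shares in shallow lineages can be too low. Since no library is tied to a sample, the spread between mice is unknown.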
